A study of Mus musculus with 12 samples.

Results

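RNA of LY6D+SCA1low prostate luminal cells, in 2 libraries, was compared with RNA of LY6D-SCA1low cells, in 2 libraries, out of 12 libraries in the series. The 4 libraries were chosen by the sorted population that their labels name. LY6D+SCA1low cells carry the surface protein LY6D and little SCA1, the protein encoded by Ly6a; LY6D-SCA1low cells lack LY6D and also carry little SCA1. The donors of all groups were C57BL/6 animals of wild-type genotype, 6 to 8 weeks old, with no further allele or agent named, and from prostate cells free of the lineage proteins CD31, CD45 and Ter119, which mark endothelium, leukocytes and red cells. The other 8 libraries are LY6D+SCA1Int and LY6D-SCA1Int, and LY6D+SCA1high and LY6D-SCA1high, with 2 libraries each. The sorted cells were measured in bulk by sequencing the 3′ ends of poly(A)-primed transcripts. The series text calls the 2 libraries of a group biological replicates; whether each is 1 animal or a pool is not given in the labels, so the p-values describe how far these libraries vary, which may be technical.

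The prostate duct is lined by luminal cells, which secrete the proteins of prostatic fluid, and by basal cells beneath them, which carry keratin filaments of KRT5 and KRT14 and grip the basement membrane. LY6D is a small GPI-anchored protein of the Ly6 family, and SCA1 is widely used to enrich proximal and progenitor-like prostate cells. The comparison asks how cells with LY6D differ from cells without it inside the SCA1low gate.

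Totals of the 4 libraries were 16361576 and 15588467 counts for LY6D+SCA1low, against 12432403 and 11954423 counts for LY6D-SCA1low, within a range of 8436185 to 20022077 over the series. The 3 features counted as ribosomal RNA took 24.4% and 19.5% of the LY6D+SCA1low counts, against 22.0% and 20.0% of the LY6D-SCA1low counts. A reservation applies most to 2 of these libraries. LY6D-SCA1low replicate 2 correlated at 0.73 across genes with LY6D-SCA1high replicate 1 and at 0.68 with its own replicate; 38 genes otherwise almost private to LY6D-SCA1high replicate 1 stood in it at a median of 14.0% of their level there. LY6D+SCA1low replicate 1 correlated at 0.73 with LY6D+SCA1Int replicate 1 and at 0.67 with its own replicate, and 71 genes nearly private to LY6D+SCA1Int replicate 1 stood in it at a median of 5.67%. Genes are not independent replicates in these correlations. Lesser signs stood in the remaining libraries. LY6D+SCA1low replicate 2 held a median of 2.63% of 24 genes nearly private to LY6D-SCA1Int replicate 2. LY6D-SCA1low replicate 1 held 1.58% of 49 genes nearly private to LY6D-SCA1high replicate 2. These were not taken off, unlike the shares of 14.0% and 5.67%. Values without 1 library, or after taking those 2 shares off (the subtraction, an alternative added after seeing the data), stand beside the results concerned.

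LY6D+SCA1low cells held more RNA of 4 basal keratins, of the ERK phosphatase gene Dusp6, of the early transcription factors Egr1, Junb and Nr4a1, and of some matrix and actin-binding proteins. They held less RNA of 3 major prostatic secretory proteins, Spink1, Sbp and Pbsn, of the calcium-binding chaperone Calr, and of 7SK and other small non-coding RNAs. Several of these differences did not pass under every alternative run. Among them were those of Krt17, Egr1, Junb, Spink1, Sbp, Pbsn, Calr, 7SK and of matrix and actin-binding genes, as given with each below. Of 15270 genes tested, 72 (0.472%) had an adjusted p below 0.05 by edgeR's quasi-likelihood test; such genes are named called here. Of these, 58 (0.38%) were higher and 14 (0.0917%) were lower in LY6D+SCA1low cells, with median log2 fold changes of 3.94 and -2.91. At an unadjusted p below 0.05 there were 1217 higher (7.97%) and 623 lower genes (4.08%). DESeq2 called 778 higher (5.9%) and 885 lower (6.71%) of the 13197 genes to which it gave an adjusted p. The median log2 fold change of all tested genes was 0.20 with TMM scaling and -0.19 with RLE size factors, under which 35 higher and 28 lower genes were called, so the balance of directions rests on the scaling. Leaving out 1 library gave 66 higher and 25 lower without LY6D+SCA1low replicate 1, 62 and 22 without LY6D+SCA1low replicate 2, 39 and 44 without LY6D-SCA1low replicate 1, and 76 and 25 without LY6D-SCA1low replicate 2. Each of these fits filtered the genes anew and tested 17625 to 17743 of them, against 15270, so its count is not of the same genes. In all 72 called genes the 2 groups did not overlap. Both LY6D+SCA1low libraries stood above both LY6D-SCA1low libraries in 22.8% of all tested genes and below them in 20.5%. Of the 58 higher genes, 17 had a LY6D-SCA1low mean below 5 CPM (counts scaled to library size and TMM factors), so that their fold changes rest on few counts.

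**Figure D1:**
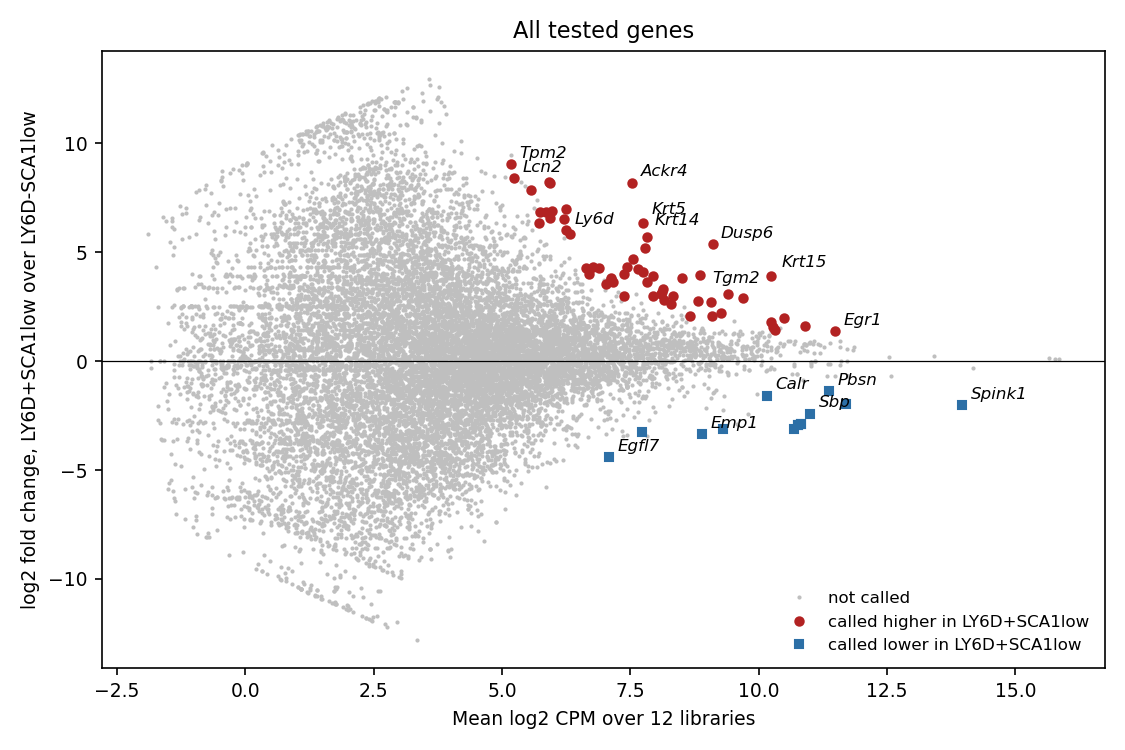
Log2 fold change of LY6D+SCA1low over LY6D-SCA1low (vertical) against mean log2 CPM over 12 libraries (horizontal) for the 15270 tested genes, with the 58 genes called higher as red circles and the 14 called lower as blue squares. Genes of low level have fold changes as large as those of called genes and are not called.

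The gene of the sorted protein was called higher in LY6D+SCA1low cells. Ly6d (chromosome 15, 74762056 to 74763620) had 54.7 and 37 CPM in LY6D+SCA1low cells, against 0.968 and 0.433 CPM in LY6D-SCA1low cells. Both LY6D+SCA1low libraries were far above both LY6D-SCA1low libraries, with a log2 fold change of 6.03 ± 1.23 (SE, edgeR adjusted p = 0.0121). At this low level the call was lost without LY6D-SCA1low replicate 1, at 6.47 ± 1.77 (adjusted p = 0.0599), and without LY6D-SCA1low replicate 2, at 5.58 ± 1.68 (adjusted p = 0.109). Ly6a, the gene of SCA1, had 3.37 and 13.5 CPM in LY6D+SCA1low cells, against 24.8 and 68.8 CPM in LY6D-SCA1low cells. Its LY6D+SCA1low libraries were the lower pair, but the log2 fold change of -2.47 ± 0.74 did not pass the test (edgeR adjusted p = 0.205). It was -1.87 ± 0.93 (adjusted p = 0.627) without LY6D+SCA1low replicate 1, -3.64 ± 1.04 (adjusted p = 0.0869) without LY6D+SCA1low replicate 2, -3.25 ± 0.79 (adjusted p = 0.0139) without LY6D-SCA1low replicate 1 and -1.63 ± 0.80 (adjusted p = 0.637) without LY6D-SCA1low replicate 2. After carried-over counts were taken off it was -0.79 ± 1.18 (adjusted p = 0.831). Among 11 tested genes of the sorted proteins and the Ly6 family, of 15 listed, Ly6d alone was called, and the median log2 fold change was 0.

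Basal keratin genes were higher in LY6D+SCA1low cells. Krt14 (chromosome 11, 100203162 to 100207548) had 161 and 193 CPM in LY6D+SCA1low cells, against 3.55 and 3.29 CPM in LY6D-SCA1low cells. Krt5, its filament partner (chromosome 15, 101707070 to 101712898), had 186 and 460.3 CPM in LY6D+SCA1low cells, against 3.76 and 4.16 CPM in LY6D-SCA1low cells. Krt15, a further keratin of basal layers (chromosome 11, 100131758 to 100135928), had 1063 and 1223 CPM in LY6D+SCA1low cells, against 26.4 and 125 CPM in LY6D-SCA1low cells. In all 3 genes both LY6D+SCA1low libraries stood well above both LY6D-SCA1low libraries. The log2 fold changes were 5.69 ± 0.67 for Krt14 (adjusted p = 1.75e-05), 6.35 ± 0.77 for Krt5 (1.85e-05) and 3.92 ± 0.47 for Krt15 (1.85e-05). That of Krt15 was 2.96 ± 0.38 without LY6D-SCA1low replicate 1 and 5.43 ± 0.46 without LY6D-SCA1low replicate 2. That of Krt5 was 5.70 ± 0.87 without LY6D+SCA1low replicate 2, and after the subtraction it was 6.96 ± 0.87 for Krt5 and 6.38 ± 0.84 for Krt14, with every one of these still called. Krt17, a keratin of basal and activated epithelia (chromosome 11, 100256217 to 100261029), had 554 and 2740 counts in the LY6D+SCA1low libraries, against 4 and 5 counts in the LY6D-SCA1low libraries. It rose, with a fitted value of 8.18 ± 1.52 on the log2 scale (adjusted p = 0.00442), and the call was lost without LY6D+SCA1low replicate 2, at 6.74 ± 1.82 (adjusted p = 0.0522). Since cells were measured in bulk, more cells of a type and more RNA per cell cannot be told apart here or below.

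Of 25 basal genes listed, 23 were tested, 6 were called higher and none lower, and 22 had a positive log2 fold change. Their median log2 fold change was 2.98, against 0.20 over all tested genes. The other 2 called members were Itga6, the laminin-binding integrin of hemidesmosomes, at 2.80 ± 0.58 (adjusted p = 0.013), and Lgals7, a galectin of stratified epithelia, at 2.98 ± 0.63 (0.0156). Without LY6D-SCA1low replicate 1 both lost the call, at 2.16 ± 0.69 (adjusted p = 0.226) for Itga6 and 2.07 ± 0.65 (adjusted p = 0.198) for Lgals7, and 4 members were then called. Trp63, the transcription factor that defines basal cells, had 44.3 and 46.2 CPM in LY6D+SCA1low cells, against 0.43 and 0.433 CPM in LY6D-SCA1low cells. Its 2 groups were wide apart, yet the log2 fold change of 6.69 ± 1.84 did not pass the test (adjusted p = 0.129). Cdh3, the cadherin of basal cells, had 152 and 59.4 CPM in LY6D+SCA1low cells, against 0.968 and 1.47 CPM in LY6D-SCA1low cells, at an adjusted p of 0.0727. Of 13 tested genes of stratified and cornified epithelium (22 listed), Sfn alone was called. Sfn, a 14-3-3 adaptor protein of stratified epithelia (chromosome 4, 133600556 to 133602168), had 750.5 and 719 CPM in LY6D+SCA1low cells, against 119 and 105 CPM in LY6D-SCA1low cells, a log2 fold change of 2.71 ± 0.42 (adjusted p = 0.000587). Next by p in that list, and not past the test, were Evpl, the cornified envelope protein envoplakin, with 16.3 and 34.6 CPM in LY6D+SCA1low cells, against 0.215 and 0 CPM in LY6D-SCA1low cells, and Pkp1, a desmosomal plakophilin, with 0.919 and 24 CPM in LY6D+SCA1low cells, against 0.323 and 0.173 CPM in LY6D-SCA1low cells (adjusted p = 0.408 and 0.415).

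**Figure D2:**
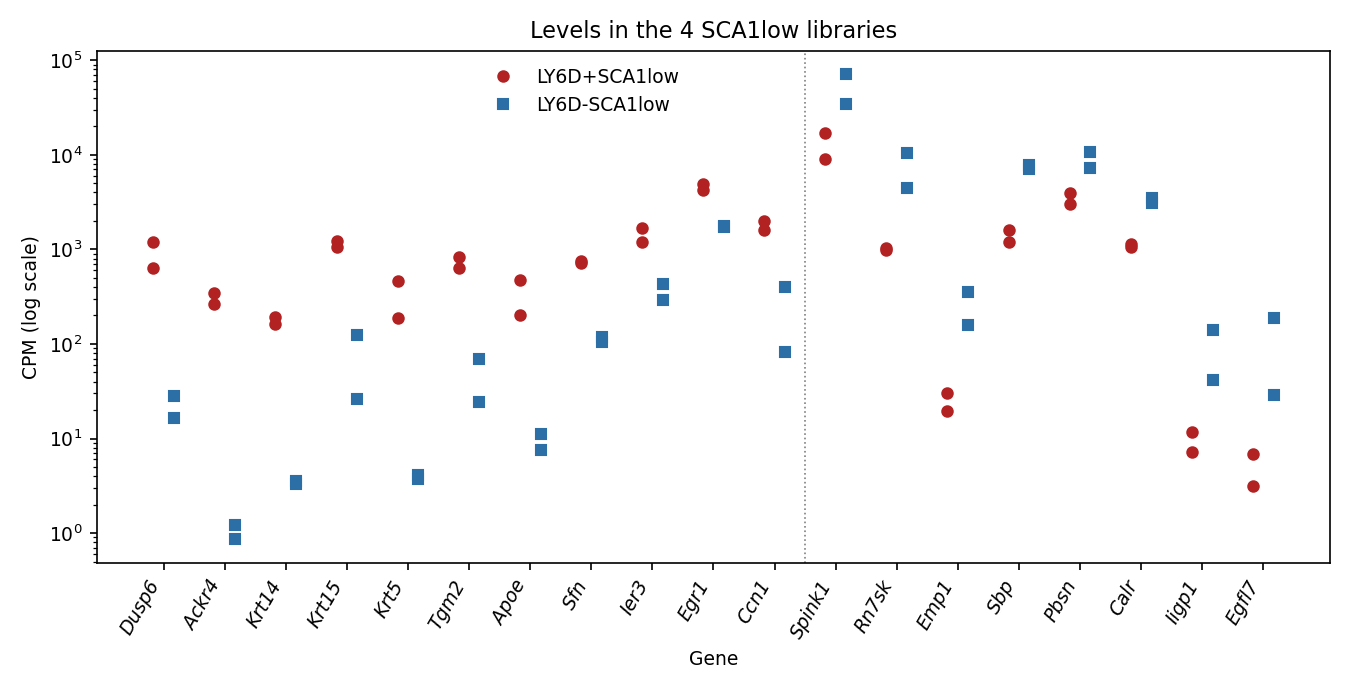
CPM on a log scale in each of the 4 SCA1low libraries (LY6D+SCA1low red circles, LY6D-SCA1low blue squares) for 11 higher and 8 lower genes among those of smallest p that the rule on named genes takes, split by the dotted line. In every gene the 2 groups do not overlap.

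Genes of the ERK pathway, which carries signals from receptors such as that of EGF, were higher in part. Dusp6, a phosphatase that ERK induces and that switches ERK off (chromosome 10, 99263231 to 99267489), had 628 and 1208 CPM in LY6D+SCA1low cells, against 16.5 and 28.4 CPM in LY6D-SCA1low cells. It had the smallest p of all genes, with a log2 fold change of 5.35 ± 0.57 (adjusted p = 5.46e-06), and of 6.20 ± 0.61 after the subtraction. Of 24 listed ERK feedback and target genes, 22 were tested, 6 were called higher and 1 lower, and the median log2 fold change was 2.36. Ier3, an early response gene that modulates survival, had 1204 and 1669.9 CPM in LY6D+SCA1low cells, against 294 and 430.1 CPM in LY6D-SCA1low cells, a log2 fold change of 1.99 ± 0.31 (adjusted p = 0.000587; 2.59 ± 0.32 after the subtraction). Hbegf, a ligand of the EGF receptor, had 608 and 482 CPM in LY6D+SCA1low cells, against 142 and 91.7 CPM in LY6D-SCA1low cells. Its log2 fold change was 2.22 ± 0.39 (adjusted p = 0.00284). Fosl1, which encodes an AP-1 subunit, had 757 and 1005 counts in LY6D+SCA1low, against 2 and 4 counts in LY6D-SCA1low; with so few counts in LY6D-SCA1low the fitted log2 fold change of 7.87 ± 1.79 (adjusted p = 0.034) depends on the prior count. Phlda1 rose by 2.99 ± 0.69 on the log2 scale (adjusted p = 0.0394). Without LY6D-SCA1low replicate 1 the calls of Phlda1 and Fosl1 were lost, at 1.98 ± 0.73 (adjusted p = 0.447) and 7.36 ± 2.34 (adjusted p = 0.21); without LY6D+SCA1low replicate 2 that of Phlda1 was lost, at 2.54 ± 0.73 (adjusted p = 0.0891), and without LY6D-SCA1low replicate 2 that of Fosl1, at 8.24 (adjusted p = 0.117). Feedback inhibitors that did not pass the test were Spry2, at 72.2 and 135 CPM in LY6D+SCA1low cells, against 3.01 and 1.9 CPM in LY6D-SCA1low cells (adjusted p = 0.0775), and Errfi1, at 547 and 555 CPM in LY6D+SCA1low cells, against 10.3 and 154 CPM in LY6D-SCA1low cells (0.112). The list's lower gene was Emp1, an epithelial membrane protein (chromosome 6, 135362545 to 135383173), with 19.8 and 30.6 CPM in LY6D+SCA1low cells, against 159 and 356 CPM in LY6D-SCA1low cells. It fell, with a log2 fold change of -3.35 ± 0.54 (adjusted p = 0.000996), of -4.05 ± 0.49 without LY6D-SCA1low replicate 1 and of -2.68 ± 0.49 without LY6D-SCA1low replicate 2.

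Immediate early genes, which cells transcribe within minutes of a stimulus, were higher in part. Of 39 tested immediate early and heat shock genes, 5 were called higher and none lower, 34 had a positive log2 fold change, and the median was 1.07. Egr1, a zinc finger transcription factor that is also on the ERK list as Ier3 is on this one, had 4192 and 4918 CPM in LY6D+SCA1low cells, against 1720.1 and 1782 CPM in LY6D-SCA1low cells. Junb, an AP-1 subunit (chromosome 8, 84974484 to 84978718), had 2564 and 2747 CPM in LY6D+SCA1low cells, against 1147 and 604 CPM in LY6D-SCA1low cells. Nr4a1, an orphan nuclear receptor (chromosome 15, 101254269 to 101274795), had 1774 and 1587 CPM in LY6D+SCA1low cells, against 452 and 509.7 CPM in LY6D-SCA1low cells. The groups did not overlap in these 3 genes, and the log2 fold changes were 1.38 ± 0.22 for Egr1 (adjusted p = 0.000996), 1.60 ± 0.28 for Junb (0.00206) and 1.80 ± 0.33 for Nr4a1 (0.00399). Ccn1, a matricellular protein (chromosome 3, 145646976 to 145649981), had 1586 and 1980 CPM in LY6D+SCA1low cells, against 399.6 and 83.1 CPM in LY6D-SCA1low cells, a log2 fold change of 2.89 ± 0.47 (adjusted p = 0.00105). It was 4.19 ± 0.49 without LY6D-SCA1low replicate 1 and 2.14 ± 0.44 without LY6D-SCA1low replicate 2, called in both. Under RLE size factors the calls of Egr1, at 0.95 ± 0.22 (adjusted p = 0.0523), and Junb, at 1.14 ± 0.30 (adjusted p = 0.118), were lost, and DESeq2 did not call them either, at 0.95 ± 0.47 (adjusted p = 0.173) and 1.14 ± 0.54 (adjusted p = 0.148). Without LY6D-SCA1low replicate 2 the list held 8 called genes in place of 5. Fos had 789 and 849 CPM in LY6D+SCA1low cells, against 768 and 591 CPM in LY6D-SCA1low cells, and Dusp1 had 244 and 318 CPM in LY6D+SCA1low cells, against 349 and 176 CPM in LY6D-SCA1low cells; neither passed the test (adjusted p = 0.753 and 0.95). Such genes can respond to tissue dissociation and sorting, and the part of handling in these values was not tested.

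The promoters of Nr4a1 and Junb, 2 immediate early genes that were higher together, are shown from RefSeq on GRCm38.p6, from 250 bases before to 50 after the RefSeq start, 5′ to 3′ on the gene's strand. Nr4a1 lies at chr15:101266596-101266895 on the plus strand, in a promoter downstream of the first GENCODE start of the gene, and Junb at chr8:84978699-84978998 on the minus strand. Capitals mark matches, on either strand, of TGCGTCA (a CRE-like sequence, chosen after the promoters were seen), TGACGTCA (the CRE), TGANTCA (AP-1), the NF-kB motif or TATAAA (the TATA box); GGGCGG (Sp1) was searched and left in lower case.
Nr4a1: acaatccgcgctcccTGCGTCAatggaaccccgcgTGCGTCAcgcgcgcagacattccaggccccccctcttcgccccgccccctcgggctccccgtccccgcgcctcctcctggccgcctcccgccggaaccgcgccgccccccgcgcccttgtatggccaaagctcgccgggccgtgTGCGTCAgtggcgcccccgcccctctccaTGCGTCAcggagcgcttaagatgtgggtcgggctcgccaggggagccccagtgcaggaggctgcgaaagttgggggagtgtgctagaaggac
Junb: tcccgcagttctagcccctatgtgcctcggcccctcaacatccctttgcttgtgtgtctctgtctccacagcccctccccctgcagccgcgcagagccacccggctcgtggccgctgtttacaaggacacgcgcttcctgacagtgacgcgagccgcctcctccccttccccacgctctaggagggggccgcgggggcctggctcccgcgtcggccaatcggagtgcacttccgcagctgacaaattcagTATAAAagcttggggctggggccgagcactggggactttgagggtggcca
The Nr4a1 window held 4 matches of TGCGTCA and 3 of GGGCGG, with no overlap between matches of different motifs, and the Junb window held 1 match of TATAAA. The sequence TGCGTCA occurred in 3 of the 36 called higher genes with a RefSeq promoter (8.33%). It occurred in 4.31% of 9718 tested genes with one and in 2.42% of all 27025 genes with one. Nr4a1 is itself among these 3 genes, beside Unc45a and Col7a1. As the sequence was chosen after the promoters were seen, this share is partly set by that choice. TGANTCA occurred in 2 of 36 (5.56%), against 6.27% of tested genes, TGACGTCA in 0 of 36, against 3.51%, and TATAAA in 8 of 36 (22.2%), against 9.21%. GGGCGG occurred in 24 of 36 (66.7%), against 68.6%, and the NF-kB motif in 1 of 36 (2.78%), against 2.06%. These are counts of letters in a window and not binding sites.

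Genes of other roles stood beside these. Tgm2, the tissue transglutaminase that cross-links proteins (chromosome 2, 158116402 to 158146436), had 639 and 835 CPM in LY6D+SCA1low cells, against 24.4 and 70 CPM in LY6D-SCA1low cells. Ackr4, an atypical receptor that takes up chemokines without G protein signalling (chromosome 9, 104084157 to 104126933), had 267 and 345 CPM in LY6D+SCA1low cells, against 0.86 and 1.21 CPM in LY6D-SCA1low cells. Both genes overlap an annotated gene on the opposite strand, and the strand setting of the counting is not given in the sources used here. The same limit holds for Junb, Cp, Col18a1, Pdgfa, Gas6, Nfib, Ccnd2, Phlda1, Lgals7 and Egfl7. An annotated gene on the same strand overlaps Egfl7 and Gm26315. Apoe, a lipid-carrying apolipoprotein, had 204 and 478 CPM in LY6D+SCA1low cells, against 7.64 and 11.3 CPM in LY6D-SCA1low cells. In Tgm2, Ackr4 and Apoe every LY6D+SCA1low library stood above every LY6D-SCA1low library. Their log2 fold changes were 3.96 ± 0.51, 8.19 ± 0.94 and 5.17 ± 0.71, with edgeR adjusted p-values of 4.84e-05, 1.38e-05 and 0.000129. Together with Dusp6, Krt5, Krt14 and Krt15 these 3 genes were called under each of the 14 alternatives run. The size moved for Tgm2, to 3.16 ± 0.59 without LY6D-SCA1low replicate 1, 4.90 ± 0.66 without LY6D-SCA1low replicate 2 and 5.95 ± 1.11 after the subtraction, and for Apoe, to 4.58 ± 0.82 without LY6D+SCA1low replicate 2 and 6.45 ± 1.19 after the subtraction.

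Several called genes encode proteins of the matrix or of its receptors; they were taken from the called genes and are not a tested list. Col18a1, a basement membrane collagen, had 281 and 475 CPM in LY6D+SCA1low cells, against 35.2 and 5.8 CPM in LY6D-SCA1low cells, a log2 fold change of 4.21 ± 0.76 (adjusted p = 0.00392). It was 5.79 without LY6D-SCA1low replicate 1 and 3.39 ± 0.88 without LY6D-SCA1low replicate 2, called in both. Sdc1, a syndecan of epithelial surfaces, had 435 and 663 CPM in LY6D+SCA1low cells, against 6.13 and 72.7 CPM in LY6D-SCA1low cells, at 3.80 ± 0.72 (adjusted p = 0.00541). It was 2.69 ± 0.64 without LY6D-SCA1low replicate 1 and 6.46 ± 0.81 without LY6D-SCA1low replicate 2, called in both. Dcn, the proteoglycan decorin, which fibroblasts make in most tissues, had 726 and 807 CPM in LY6D+SCA1low cells, against 203 and 159 CPM in LY6D-SCA1low cells, at 2.08 ± 0.40 (adjusted p = 0.00583). The other abundant genes of that list did not pass the test: Gsn, the actin-severing gelsolin, had 113 and 307 CPM in LY6D+SCA1low cells, against 134 and 179 CPM in LY6D-SCA1low cells. Igfbp7 had 2.91 and 7.39 CPM in LY6D+SCA1low cells, against 20.5 and 69.6 CPM in LY6D-SCA1low cells (adjusted p = 0.694 for Gsn and 0.142 for Igfbp7). Dcn was the 1 called gene among 22 tested fibroblast and smooth muscle genes (25 listed; median log2 fold change -0.75, but 0.011 without LY6D+SCA1low replicate 1 and -2.96 without LY6D+SCA1low replicate 2), and its call was lost under RLE size factors, at 1.64 ± 0.40 (adjusted p = 0.0776). Fmod, a related proteoglycan, rose by 4.08 ± 0.75 (adjusted p = 0.0044; 5.96 ± 0.97 without LY6D-SCA1low replicate 1 and 3.22 ± 0.84 without LY6D-SCA1low replicate 2) and lost its call after carried-over counts were taken off, at 4.26 ± 1.20 (adjusted p = 0.139). Agrn, the basement membrane proteoglycan agrin, rose by 3.81 ± 0.77 (adjusted p = 0.0115), a call lost without LY6D-SCA1low replicate 2, at 3.44 ± 1.06 (adjusted p = 0.132). Col7a1, of the anchoring fibrils under basal cells, had 1163 and 663 counts, against 8 and 4 in LY6D-SCA1low, and lost its call without LY6D+SCA1low replicate 1 (6.31 ± 1.74, adjusted p = 0.0534), LY6D-SCA1low replicate 1 (7.40 ± 2.18, adjusted p = 0.119) or LY6D-SCA1low replicate 2 (6.37 ± 2.08, adjusted p = 0.188).

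Of 25 actin and myosin genes, all tested, 3 were called higher and none lower, 21 were positive and the median was 1.23. Flna, the actin cross-linker filamin A, had 478 and 292 CPM in LY6D+SCA1low cells, against 7.31 and 54.5 CPM in LY6D-SCA1low cells, a log2 fold change of 3.64 ± 0.77 (adjusted p = 0.0157). Tns4, a focal adhesion tensin, had 33.2 and 281 CPM in LY6D+SCA1low cells, against 0.43 and 0.606 CPM in LY6D-SCA1low cells, and 1 LY6D+SCA1low library carried most of it. Tpm2, a tropomyosin, had 1561 and 1259 counts in LY6D+SCA1low, against 3 and 1 in LY6D-SCA1low. Their fitted log2 fold changes were 8.21 ± 1.56 for Tns4 (adjusted p = 0.00583) and 9.02 ± 2.05 for Tpm2 (0.034). Without LY6D-SCA1low replicate 1 none of the 3 was called, at 2.59 ± 0.78 (adjusted p = 0.137), 7.77 ± 2.12 (adjusted p = 0.0567) and 9.95 ± 3.05 (adjusted p = 0.163) in the order named. Tns4 was also lost without LY6D+SCA1low replicate 2 (6.13 ± 1.93, adjusted p = 0.173), and Tpm2 without LY6D+SCA1low replicate 1 (8.77 ± 2.56, adjusted p = 0.0894) or LY6D-SCA1low replicate 2 (8.37 ± 2.82, adjusted p = 0.224). Myl12a, a myosin light chain, had 263 and 399 CPM in LY6D+SCA1low cells, against 50.2 and 121 CPM in LY6D-SCA1low cells and did not pass the test (adjusted p = 0.077).

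Of 33 listed secreted ligands, 26 were tested and 2 were called, both higher, with a median log2 fold change of 1.43 (0.56 without LY6D-SCA1low replicate 1, 2.57 without LY6D-SCA1low replicate 2). Besides Hbegf this was Pdgfa, a growth factor for stromal cells, with 253 and 586 CPM in LY6D+SCA1low cells, against 2.9 and 39.6 CPM in LY6D-SCA1low cells. Its log2 fold change was 4.30 ± 0.88 (adjusted p = 0.0122), and 3.18 ± 0.93 (adjusted p = 0.117) without LY6D-SCA1low replicate 1, where the call was lost. Shh, the hedgehog ligand, had 46 and 44.7 CPM in LY6D+SCA1low cells, against 0.108 and 0 CPM in LY6D-SCA1low cells, and Jag1, a Notch ligand, had 108 and 83.1 CPM in LY6D+SCA1low cells, against 2.37 and 7.01 CPM in LY6D-SCA1low cells; neither passed the test (adjusted p = 0.401 and 0.324). Outside this list, Gas6, the ligand of the receptor kinase Axl, rose by 1.56 ± 0.31 (adjusted p = 0.0104; 1.27 ± 0.35, adjusted p = 0.0585 without LY6D-SCA1low replicate 2). Adm, the vasodilator peptide adrenomedullin, rose by 4.33 ± 0.94 (adjusted p = 0.0217; 3.38 ± 1.17, adjusted p = 0.353 without LY6D-SCA1low replicate 1).

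A few prostatic secretory genes were called lower. Spink1, a secreted trypsin inhibitor (chromosome 18, 43728082 to 43737557), had 16940 and 9020.5 CPM in LY6D+SCA1low cells, against 71398 and 34790 CPM in LY6D-SCA1low cells. Sbp, the spermine-binding protein (chromosome 17, 23941672 to 23945607), had 1599 and 1187 CPM in LY6D+SCA1low cells, against 7106 and 7705 CPM in LY6D-SCA1low cells. Pbsn, the androgen-regulated lipocalin probasin (chromosome X, 77837901 to 77853623), had 3910.3 and 2999.9 CPM in LY6D+SCA1low cells, against 10655 and 7158 CPM in LY6D-SCA1low cells. LY6D+SCA1low cells were the lower group in each without overlap, with log2 fold changes of -2.03 ± 0.31 for Spink1 (adjusted p = 0.000587), -2.41 ± 0.47 for Sbp (0.00701) and -1.37 ± 0.28 for Pbsn (0.0121). Spink1 stood at -2.66 ± 0.16 without LY6D+SCA1low replicate 1. Without LY6D+SCA1low replicate 2 Pbsn lost its call, at -1.05 ± 0.29 (adjusted p = 0.0715), and limma-trend on the deposited normalised values called none of the 3, with adjusted p-values of 0.0593 for Spink1, 0.124 for Sbp and 0.142 for Pbsn. Sbp and its near copy Sbpl may share reads; Sbpl had 666 and 491 CPM in LY6D+SCA1low cells, against 2986 and 3254 CPM in LY6D-SCA1low cells.

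Of 28 listed secretory genes, 26 were tested; these 3 were called lower and none higher, 24 were negative and the median log2 fold change was -1.71. The list took 2.43% and 1.73% of all counts in LY6D+SCA1low, against 8.30% and 6.39% in LY6D-SCA1low. Tgm4, the prostate transglutaminase of the copulatory plug, had 1265 and 1573 CPM in LY6D+SCA1low cells, against 4709.6 and 3572 CPM in LY6D-SCA1low cells. The beta-defensin Defb50 had 3499 and 3722 CPM in LY6D+SCA1low cells, against 7320.2 and 4436 CPM in LY6D-SCA1low cells; neither passed the test (adjusted p = 0.408 and 0.335). The number called was 5 without LY6D+SCA1low replicate 1, 7 without LY6D-SCA1low replicate 1 and 7 without LY6D-SCA1low replicate 2. Tgm2 and Tgm4 were the only tested transglutaminases of 8 listed, and their log2 fold changes had opposite signs, 3.96 ± 0.51 and -1.54 ± 0.61. A further called lower gene, 9530053A07Rik (chromosome 7, 28129466 to 28164811), had 3426 and 3084 CPM in LY6D+SCA1low cells, against 15885 and 9293 CPM in LY6D-SCA1low cells.

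Chaperones of the endoplasmic reticulum, where secreted proteins fold, were lower in most cases without passing the test singly. Calr, the calcium-binding chaperone calreticulin (chromosome 8, 84841850 to 84846934), had 1146 and 1058 CPM in LY6D+SCA1low cells, against 3502 and 3124 CPM in LY6D-SCA1low cells, a log2 fold change of -1.59 ± 0.32 (adjusted p = 0.0121). It was lost without LY6D+SCA1low replicate 2, at -1.39 ± 0.42 (adjusted p = 0.121). Of 39 tested genes (41 listed), Calr alone was called, 8 were lower at an unadjusted p below 0.05 and none higher, 35 were negative, and the median was -0.99; the number called was 2 without LY6D+SCA1low replicate 1, without LY6D-SCA1low replicate 1 or without LY6D-SCA1low replicate 2. Hspa5, the central chaperone BiP, had 1808 and 2027 CPM in LY6D+SCA1low cells, against 3523 and 3528 CPM in LY6D-SCA1low cells (adjusted p = 0.154). Sel1l, of the degradation complex, had 31 and 3.35 CPM in LY6D+SCA1low cells, against 324 and 177 CPM in LY6D-SCA1low cells (adjusted p = 0.282).

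**Figure D3:**
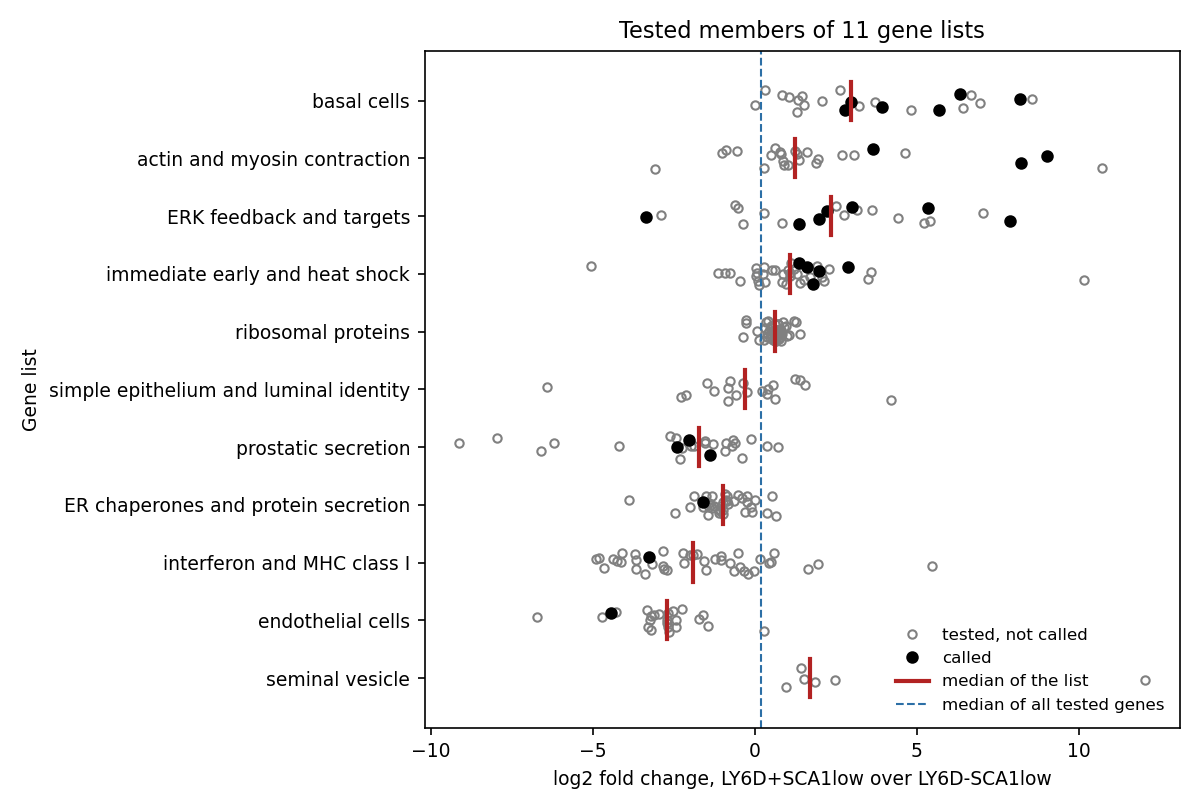
Log2 fold change of LY6D+SCA1low over LY6D-SCA1low for each tested member of 11 gene lists, with called genes filled, each list's median in red and the median of all tested genes, 0.20, as a dashed line. Basal, actin, ERK, immediate early and seminal vesicle lists lie to the right, with medians of 2.98, 1.23, 2.36, 1.07 and 1.70. Secretory, chaperone, interferon and endothelial lists lie to the left, with medians of -1.71, -0.99, -1.91 and -2.70. Ribosomal protein and luminal lists have medians of 0.63 and -0.29.

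Luminal identity genes as a whole did not move one way. Krt18 had 502 and 313 CPM in LY6D+SCA1low cells, against 295 and 236 CPM in LY6D-SCA1low cells, and Krt8, its partner, had 98.7 and 133 CPM in LY6D+SCA1low cells, against 266 and 148 CPM in LY6D-SCA1low cells. Cldn4, a tight junction protein, had 1738 and 1738 CPM in LY6D+SCA1low cells, against 871 and 457 CPM in LY6D-SCA1low cells, the smallest p of the list (adjusted p = 0.069). edgeR called none of 20 tested luminal genes (21 listed), with 2 higher and 0 lower at an unadjusted p below 0.05, and the median log2 fold change was -0.29 (1 was called higher without LY6D+SCA1low replicate 2 and 1 without LY6D-SCA1low replicate 1). DESeq2 called 1 higher and 1 lower, limma-trend none. Of 19 tested androgen-regulated genes (20 listed), Pbsn alone was called, with a median of -0.36 (0.28 without LY6D-SCA1low replicate 1), and Tmprss2, an androgen-induced serine protease, had 65.3 and 67.3 CPM in LY6D+SCA1low cells, against 539 and 124 CPM in LY6D-SCA1low cells. Of 24 tested proximal luminal markers (25 listed), 3 were called higher and none lower, while the median was -0.26. The median was -1.60 without LY6D+SCA1low replicate 1 and 0.55 after the subtraction, and 2 members were called lower without LY6D-SCA1low replicate 1 and 1 without LY6D+SCA1low replicate 1. The 3 higher genes were Cp, the copper-carrying ceruloplasmin, with 347 and 349 CPM in LY6D+SCA1low cells, against 4.52 and 22.1 CPM in LY6D-SCA1low cells (log2 fold change 4.71 ± 0.78, adjusted p = 0.0013, 3.75 ± 0.91 without LY6D-SCA1low replicate 1 and 6.26 ± 1.08 without LY6D-SCA1low replicate 2), Sdc1 and Lcn2. Lcn2, an iron-binding lipocalin, had 1566 and 1130 counts in LY6D+SCA1low, against 4 and 2 counts in LY6D-SCA1low (adjusted p = 0.0471), and lost its call in 9 of 14 alternatives, among them those without LY6D+SCA1low replicate 1 (8.06 ± 2.44, adjusted p = 0.127), LY6D-SCA1low replicate 1 (8.94 ± 2.88, adjusted p = 0.232) or LY6D-SCA1low replicate 2 (7.91 ± 2.72, adjusted p = 0.251). Slc12a2, a chloride cotransporter of proximal cells, had 134 and 75.1 CPM in LY6D+SCA1low cells, against 374 and 681 CPM in LY6D-SCA1low cells and did not pass the test (adjusted p = 0.106).

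Small non-coding RNAs and a spacer transcript made up 6 of the 14 lower features. Rn7sk, the 7SK RNA that restrains the elongation factor P-TEFb (chromosome 9, 78175303 to 78175633), had 985 and 1024 CPM in LY6D+SCA1low cells, against 10442 and 4469.5 CPM in LY6D-SCA1low cells, a log2 fold change of -2.89 ± 0.46 (adjusted p = 0.000694). A feature with no symbol had the same counts as Rn7sk in all 4 libraries, and Gm26315 and Gm24447, annotated as miscellaneous RNAs, each had 11778 counts in LY6D+SCA1low replicate 1, so that these features may not be separate observations. Their log2 fold changes were -2.93 ± 0.43 for Gm26315 and -2.93 ± 0.43 for Gm24447, and that of Gm26035, a further such RNA, was -3.13 ± 0.66 (-2.30 ± 0.58 without LY6D-SCA1low replicate 1 and -3.73 ± 0.48 without LY6D-SCA1low replicate 2). limma-trend lost the calls of Rn7sk, at -2.80 ± 0.58 (adjusted p = 0.0555), and Gm26035, at -2.93 ± 0.83 (adjusted p = 0.174). LY6D-SCA1low replicate 1 was the highest library in each of these. Gm26917 (chromosome 17, 39843013 to 39846341), annotated as a long non-coding RNA at the ribosomal RNA repeat, had 916 and 723 CPM in LY6D+SCA1low cells, against 8549.8 and 5656 CPM in LY6D-SCA1low cells, at -3.12 ± 0.43 (adjusted p = 0.000137). It was not counted among the ribosomal RNA features above and stayed in the alternative without them. 7SK carries no poly(A) tail, and what its tags in poly(A)-primed libraries stand for was not tested.

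Markers of other cell types were followed in the same libraries. Of 24 endothelial genes, all tested, Egfl7 alone was called, lower, and 23 were negative with a median of -2.70. Egfl7 had 3.14 and 6.92 CPM in LY6D+SCA1low cells, against 28.5 and 188 CPM in LY6D-SCA1low cells. Esam, also on the list, had 6.2 and 19.1 CPM in LY6D+SCA1low cells, against 42.4 and 122 CPM in LY6D-SCA1low cells. Pecam1, which encodes the CD31 used to remove endothelium, had 3.75 and 11.3 CPM in LY6D+SCA1low cells, against 28.6 and 69.3 CPM in LY6D-SCA1low cells. The summed level of the list was 96.7 and 244 CPM in LY6D+SCA1low cells, against 559 and 1167 CPM in LY6D-SCA1low cells, and LY6D-SCA1low replicate 2 was the highest. Without that library the log2 fold change of Egfl7 was -2.54 ± 0.91 (adjusted p = 0.304) and none of the list was called; none was called either without LY6D+SCA1low replicate 1 (-4.04 ± 1.15, adjusted p = 0.0706 for Egfl7), while 4 were called without LY6D+SCA1low replicate 2 and 5 without LY6D-SCA1low replicate 1. After carried-over counts were taken off, the median of the list was -1.29 and edgeR called none. Of 41 interferon and MHC class I genes tested, Iigp1 alone was called, lower, 34 were negative and the median was -1.91. After the subtraction none was called lower and 1 was called higher, 12 were positive and the median was -0.54. Iigp1, an interferon-induced GTPase, had 7.28 and 11.7 CPM in LY6D+SCA1low cells, against 41.6 and 140.0 CPM in LY6D-SCA1low cells. Its log2 fold change was -3.26 ± 0.68 (adjusted p = 0.0155), -2.16 ± 0.70 (adjusted p = 0.168) without LY6D-SCA1low replicate 2, -3.04 ± 0.87 (adjusted p = 0.0762) without LY6D+SCA1low replicate 1, and -1.47 ± 0.77 (adjusted p = 0.428) after the subtraction.

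Genes of the seminal vesicle, the gland next to the prostate, were present in all 4 libraries. Their summed level was 17903 and 3595 CPM in LY6D+SCA1low cells, against 6236 and 487 CPM in LY6D-SCA1low cells, highest in LY6D+SCA1low replicate 1 and lowest in LY6D-SCA1low replicate 2. edgeR called none of 6 tested (11 listed), with 3 higher at an unadjusted p below 0.05 and a median of 1.70. The median was 0.53 without LY6D+SCA1low replicate 1, 0.84 without LY6D-SCA1low replicate 2 and 4.83 without LY6D-SCA1low replicate 1. DESeq2 called 1 higher and limma-trend none, and 4 were called higher without LY6D+SCA1low replicate 2 and 4 without LY6D-SCA1low replicate 1. Svs5, a major seminal vesicle protein, had 8099 and 1254 CPM in LY6D+SCA1low cells, against 3025 and 213 CPM in LY6D-SCA1low cells. Leukocyte genes summed to 217 and 135 CPM in LY6D+SCA1low cells, against 96.2 and 49.3 CPM in LY6D-SCA1low cells, most of it Cd52, with Ptprc, the gene of CD45, listed at 0 in 3 of the 4 libraries. Of 25 listed, 10 were tested and none called by edgeR, DESeq2 or limma-trend, with 0 higher and 1 lower at an unadjusted p below 0.05 and a median of 0.37 (-0.32 without LY6D+SCA1low replicate 2 and 1.66 without LY6D-SCA1low replicate 1). Red cell genes summed to 176 and 11.9 CPM in LY6D+SCA1low cells, against 828 and 7.36 CPM in LY6D-SCA1low cells, with the replicates of each group far apart; none of 4 tested was called by any of the 3 tools, 0 had an unadjusted p below 0.05, and the median was -2.23. Without LY6D-SCA1low replicate 1 all 4 were positive with a median of 3.45, and without LY6D+SCA1low replicate 1 all 4 were lower at an unadjusted p below 0.05 with a median of -5.49, so the sign rests on 1 library. Of 9 urothelial genes 4 were tested (median -1.75; -0.10 without LY6D+SCA1low replicate 2), of which edgeR called none, 1 was lower at an unadjusted p below 0.05, DESeq2 called that number lower and limma-trend none. Of 8 neuroendocrine genes none reached the level for testing. The part of these cells in the results was not tested.

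Of 50 ribosomal protein genes edgeR called none, yet 23 were higher and 0 lower at an unadjusted p below 0.05 and 47 were positive; DESeq2 and limma-trend called none either, while 1 was called higher without LY6D+SCA1low replicate 2 and 2 without LY6D-SCA1low replicate 1. Their median log2 fold change was 0.63 with TMM and 0.19 with RLE, a shift like that of all genes. Rps23 had 3299 and 3384 CPM in LY6D+SCA1low cells, against 2106 and 1639 CPM in LY6D-SCA1low cells, and Rps3 had 1869.6 and 1376 CPM in LY6D+SCA1low cells, against 829 and 392 CPM in LY6D-SCA1low cells. Rpl36a, outside the list, was called, at 1.42 ± 0.31 (adjusted p = 0.0211; 1.09 ± 0.34 (adjusted p = 0.185) without LY6D-SCA1low replicate 1 and 0.99 ± 0.29 (adjusted p = 0.228) under RLE). Of 15 mitochondrially encoded genes edgeR and limma-trend called none and DESeq2 2 lower, with 0 higher and 7 lower at an unadjusted p below 0.05 and a median of -0.33. Without LY6D+SCA1low replicate 1 2 were called lower and without LY6D-SCA1low replicate 1 4. Of 22 tested cell cycle genes (25 listed), Ccnd2, which encodes cyclin D2, alone was called, with 512 and 326 CPM in LY6D+SCA1low cells, against 55.9 and 82 CPM in LY6D-SCA1low cells. The median of the list was 0.42, but -1.98 without LY6D+SCA1low replicate 1 and -1.43 without LY6D+SCA1low replicate 2. The log2 fold change of Ccnd2 was 2.60 ± 0.52 (adjusted p = 0.0106; 3.19 ± 0.56 after the subtraction), and the call was lost without LY6D+SCA1low replicate 1 (2.15 ± 0.65, adjusted p = 0.127) or LY6D-SCA1low replicate 1 (2.12 ± 0.66, adjusted p = 0.183). Birc5, a gene of dividing cells, had 0.153 and 1.09 CPM in LY6D+SCA1low cells, against 57.5 and 6.23 CPM in LY6D-SCA1low cells (adjusted p = 0.415). Among 16 tested aldehyde dehydrogenase genes (18 listed; median 0.83), Aldh1a7 alone was called, with 130.1 and 64.6 CPM in LY6D+SCA1low cells, against 1.4 and 1.99 CPM in LY6D-SCA1low cells. Its log2 fold change was 5.83 ± 1.21 (adjusted p = 0.0132; 5.15 ± 1.33 without LY6D+SCA1low replicate 1), and it lost its call without LY6D-SCA1low replicate 1 (5.37 ± 1.57, adjusted p = 0.108). edgeR called none of 10 tested polyamine synthesis genes (11 listed; 2 higher and 0 lower at an unadjusted p below 0.05; median 0.16, but -0.26 without LY6D+SCA1low replicate 1), nor did DESeq2 or limma-trend. Of 21 tested NF-kB targets (25 listed; median -0.06, but 0.67 without LY6D-SCA1low replicate 2) edgeR and limma-trend called none and DESeq2 1 in each direction, with 2 higher and 1 lower at an unadjusted p below 0.05. Nfkbia, the inhibitor that NF-kB induces, had 992 and 1422 CPM in LY6D+SCA1low cells, against 549 and 715 CPM in LY6D-SCA1low cells (adjusted p = 0.194).

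Among the remaining higher genes, Nfib, a transcription factor of the nuclear factor I family, had 713 and 956 CPM in LY6D+SCA1low cells, against 105 and 142 CPM in LY6D-SCA1low cells, a log2 fold change of 2.76 ± 0.48 (adjusted p = 0.00206). Rraga, a Rag GTPase that brings amino acid signals to mTOR, had 487 and 722 CPM in LY6D+SCA1low cells, against 75.7 and 48.1 CPM in LY6D-SCA1low cells, at 3.29 ± 0.57 (adjusted p = 0.00206). Adgrb1, an adhesion G protein-coupled receptor, had 128 and 179 CPM in LY6D+SCA1low cells, against 1.29 and 1.13 CPM in LY6D-SCA1low cells, at 6.98 ± 1.23 (adjusted p = 0.00269). Ano1, a calcium-activated chloride channel, had 232 and 279.5 CPM in LY6D+SCA1low cells, against 7.74 and 24.3 CPM in LY6D-SCA1low cells, at 3.99 ± 0.77 (adjusted p = 0.00701), and 3.16 ± 0.95 (adjusted p = 0.139) without LY6D-SCA1low replicate 1. Nfib, Rraga and Adgrb1 were called under all 14 alternatives. Mia, a secreted protein, shares its region and strand with Gm21983, which was called too, so that reads of the pair cannot be told apart. Its log2 fold change was 6.89 ± 1.39, and the call was lost without LY6D+SCA1low replicate 1 (6.26 ± 1.73, adjusted p = 0.0534), LY6D-SCA1low replicate 1 (6.88 ± 1.97, adjusted p = 0.0911) or LY6D-SCA1low replicate 2 (6.72 ± 1.91, adjusted p = 0.0751). Of the 72 called genes, 24 kept the call in each of the 14 alternatives (19 higher and 5 lower), 26 lost it in 1 to 3 and 22 in 4 or more, and none changed sign. Of genes that lost a call without LY6D-SCA1low replicate 1, the fold changes without LY6D-SCA1low replicate 2 were 7.12 ± 1.19 for Pdgfa, 5.74 ± 0.95 for Flna, 4.77 ± 0.88 for Phlda1, 5.86 ± 1.37 for Adm, 4.32 ± 0.77 for Lgals7 and 5.03 ± 1.08 for Ano1, all called. Without LY6D+SCA1low replicate 1 those of Krt17 and Tns4 were 8.83 ± 1.71 and 8.96 ± 1.70, and without LY6D-SCA1low replicate 1 those of Iigp1 and Egfl7 were -4.12 ± 0.70 and -5.45 ± 0.93, all called. After the subtraction Ano1, Mia, Gm21983 and Fosl1 stood at 6.05 ± 1.24, 7.64 ± 1.62, 7.46 ± 1.47 and 9.19 ± 2.11, all called. The same alternative ended the calls of Lgals7, Col7a1, Tpm2 and Lcn2, besides those of Fmod, Iigp1 and Egfl7 above. RLE size factors ended 23 of the calls, among the genes named here those of Dcn, Gas6, Ccnd2, Itga6, Lgals7, Adm, Col7a1, Tpm2, Fosl1, Phlda1 and Lcn2 besides Egr1, Junb and Rpl36a. limma-trend ended 22, among them those of Ly6d, Tns4, Iigp1, Lgals7, Col7a1, Tpm2, Fosl1, Phlda1, Egfl7 and Lcn2 besides the secretory and non-coding genes above. With the 4 SCA1low libraries alone 22 were not called, among them Hbegf, Dcn, Gas6, Ccnd2, Agrn, Ly6d, Aldh1a7, Iigp1, Lgals7, Rpl36a, Col7a1, Fosl1, Phlda1 and Egfl7, and the test against a 1.5-fold change did not call 12, among them Pbsn, Calr and Gas6.

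The LY6D difference at SCA1low was then set beside that at SCA1Int and SCA1high in the same fit. No library is shared between the 3 differences. Yet LY6D-SCA1low replicate 2 held a median of 14.0% of genes nearly private to LY6D-SCA1high replicate 1. LY6D+SCA1low replicate 1 held 5.67% of those nearly private to LY6D+SCA1Int replicate 1, so the differences may not be independent. Of the 58 higher genes, 53 were positive at SCA1Int, with a median of 0.90 and 1 called, and 54 at SCA1high, with a median of 1.76 and 13 called. All 14 lower genes were negative at both, with medians of -2.77 and -2.17 and with 10 and 7 called. The median of all tested genes was 0.003 at SCA1Int and -0.11 at SCA1high. The shares of all tested genes that were positive or called at these gates are not given here, so these counts are not read as an excess. The basal list had 0 called and a median of 1.04 at SCA1Int, and 5 called higher and 2.83 at SCA1high; the immediate early list had none called and medians of 0.22 and 0.16.

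The levels behind these differences showed where the LY6D- cells stood. Krt14 had 178 and 193 CPM in LY6D-SCA1Int and 20.5 and 35.6 CPM in LY6D-SCA1high, beside the 3.55 and 3.29 CPM of LY6D-SCA1low. Dusp6 had 379 and 301 CPM in LY6D-SCA1Int and 158 and 413 CPM in LY6D-SCA1high, beside the 16.5 and 28.4 CPM of LY6D-SCA1low. Both LY6D- libraries at SCA1low were thus the lowest of the 12 for Krt14 and Dusp6, as they were for Krt5 and Tgm2. Ackr4 had 157 and 248 CPM in LY6D-SCA1Int and 0.782 and 5.08 CPM in LY6D-SCA1high. Tgm2 had 373 and 505 CPM in LY6D-SCA1Int and 536 and 504 CPM in LY6D-SCA1high. In LY6D+ cells Ackr4 lay between 267 and 345 CPM in all 6 libraries.

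**Figure D4:**
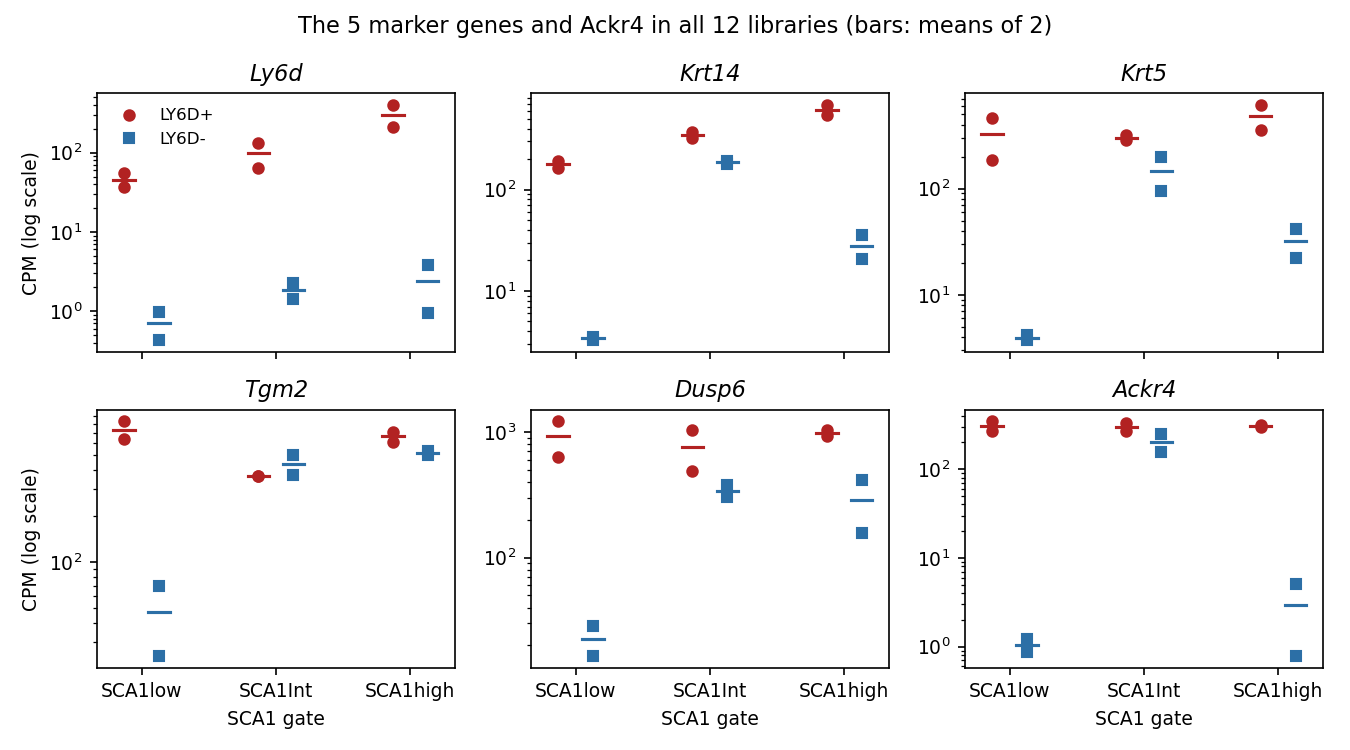
CPM on a log scale in all 12 libraries for the 5 marker genes and Ackr4, by SCA1 gate from low to high, with LY6D+ libraries as red circles, LY6D- libraries as blue squares and bars at the mean of 2. All 6 genes have their lowest LY6D- mean at SCA1low, and the LY6D+ libraries of Ly6d lie above its LY6D- libraries at each gate.

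The difference between the LY6D effects was tested in the same fit. Against SCA1high, 6 of 15270 genes (0.0393%) had an adjusted p below 0.05, 4 (0.0262%) with a larger log2 fold change at SCA1low and 2 (0.0131%) with a smaller one. At an unadjusted p below 0.05 there were 5.25% and 2.35% of genes in these directions, and 5.37% and 3.72% against SCA1Int. Tgm2 was higher in LY6D+ cells by 3.96 ± 0.51 at SCA1low and 0.36 ± 0.45 at SCA1high, a difference of 3.61 ± 0.66 (adjusted p = 0.0284). Dusp6 had 5.35 ± 0.57 and 1.77 ± 0.48, a difference of 3.58 ± 0.69 (adjusted p = 0.039), and Ier3 1.99 ± 0.31 and -0.32 ± 0.30, a difference of 2.31 ± 0.43 (adjusted p = 0.0284). Against SCA1Int, 9 genes (0.0589%) passed, all with a larger value at SCA1low, among them Krt14, with a difference of 4.78 ± 0.82 (adjusted p = 0.00843), Krt5, with 5.32 ± 0.92 (0.00843), Ackr4, with 7.63 ± 1.08 (0.00188), Dusp6, with 4.19 ± 0.69 (0.00843) and Tgm2, with 4.22 ± 0.67 (0.0058). Spink1 and Pbsn were lower in LY6D+ cells at both gates but less so at SCA1low, with differences of 2.57 ± 0.44 (adjusted p = 0.00843) and 2.05 ± 0.39 (0.028). With RLE size factors 2 and 1 genes passed, against SCA1high and SCA1Int, with limma-trend none did, and with DESeq2 494 and 631 did, among them only 3 of the 6 and 5 of the 9 genes. Nfkbia, Defb50, Ier3, Spink1, Pbsn and B2m were among those that did not pass with DESeq2, so these numbers and genes depend on the scaling and the tool. After carried-over counts were taken off, Tgm2 no longer passed, at 5.60 ± 1.36 (adjusted p = 0.257) against SCA1high and 6.21 ± 1.38 (adjusted p = 0.125) against SCA1Int. The number of genes that passed against SCA1high was 15 without LY6D+SCA1low replicate 1, 14 without LY6D+SCA1low replicate 2, 14 without LY6D-SCA1low replicate 1 and 32 without LY6D-SCA1low replicate 2; against SCA1Int it was 18, 17, 21 and 27 in the same order.

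**Figure D5:**
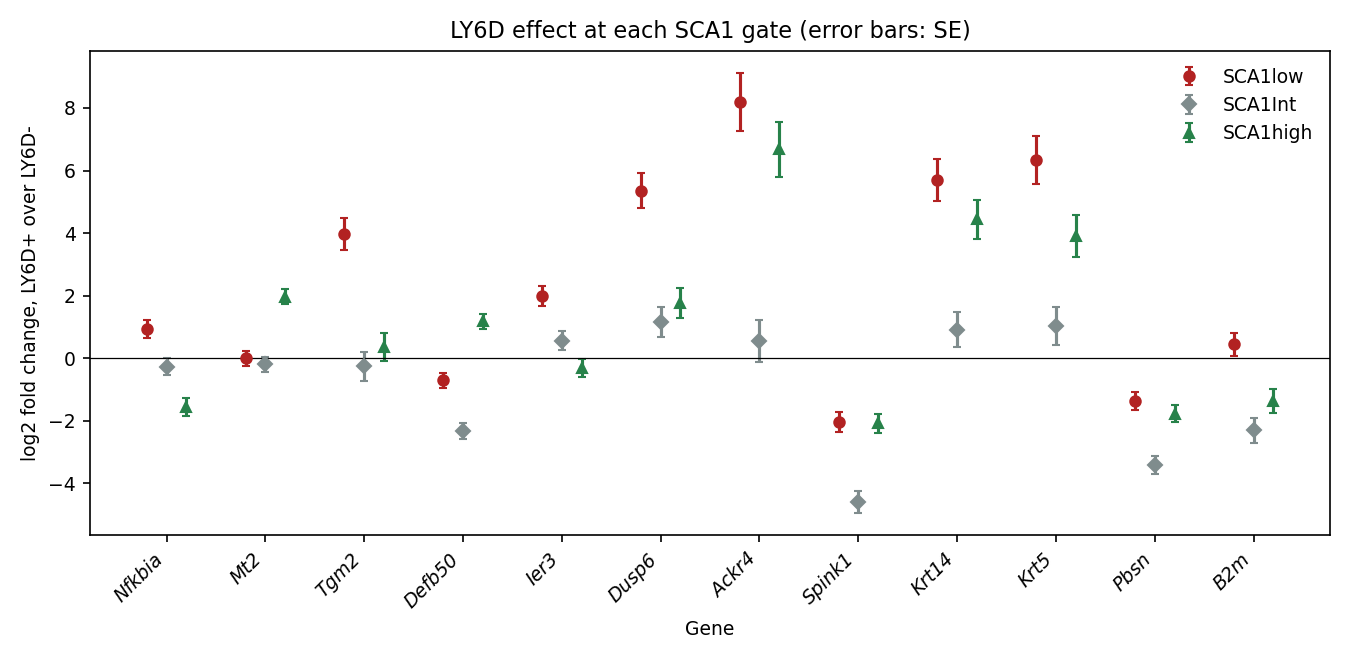
Log2 fold change of LY6D+ over LY6D- cells with its SE at SCA1low, SCA1Int and SCA1high for 12 of the 13 genes in which the difference at SCA1low differed from that at SCA1high or SCA1Int. Tgm2 stands at 3.96 at SCA1low and near 0 at both other gates, and Ackr4, Krt14 and Krt5 are high at SCA1low and SCA1high and lower at SCA1Int.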

How the data were processed

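RNA of sorted mouse prostate luminal cells was measured with the Lexogen QuantSeq 3′ FWD kit from 10 to 20 ng of RNA, per the labels' protocols. The authors deposited raw counts per gene for 12 libraries, and beside them normalised values (a signal) that equal the deposited count divided by 1 constant factor per library. The submitters' processing notes name STAR 2.5.1 and cutadapt 1.9.1, featureCounts, Picard 1.96 and SAMtools 1.3.1, and the build mm10; settings, annotation and strand were not given in the sources used here. Tags were counted without molecular identifiers as far as these sources say.

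The counts were fitted with edgeR 4.0.16 (R 4.3.3), with TMM scaling, filterByExpr by population, 1 mean for each of 6 populations over all 12 libraries (6 residual degrees of freedom, biological coefficient of variation 1.28), quasi-likelihood tests and Benjamini-Hochberg adjustment over all 15270 genes tested. Each SE was obtained from the fold change and the root of its F statistic. CPM are scaled by TMM. Between 8976 and 10796 genes had 10 or more counts in the 4 SCA1low libraries. Alternatives were RLE scaling, library size alone, no filter, a replicate block, leaving out each of the 4 libraries, the 4 libraries alone, a test against a 1.5-fold change, no ribosomal RNA features, limma-trend (limma 3.58.1) on log2 of the deposited normalised values plus 1, DESeq2 1.42.0, and the subtraction of carried-over counts. The filter was applied anew in each edgeR fit that used it. Leaving out 1 library gave 17625 to 17743 tested genes, and the 4 libraries alone gave 10746. Counts, adjusted p-values and list medians of those fits thus rest on other sets of genes than the 15270. The fits were tested on simulated counts.

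Gene coordinates are of GENCODE M21 (GRCm38). Rows whose identifier has no symbol (446 of 48795) stayed in the fit. Some genes are not reported here. Genes and lists were chosen with earlier results of these data known. Values in every library are given for called genes by smallest p where the mean log2 CPM reached 3, for the 5 markers, and for up to 5 members of a list by smallest p, or by level for lists of other cell types. Trp63, Cdh3, Spry2, Errfi1, Fos, Dusp1, Krt8, Krt18 and Pecam1 fall outside this rule and were chosen for their roles after their values were seen.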

Additional observations from a re-analysis of the deposited data

Results flagged for a closer look

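The LY6D effect at SCA1low differed from that at SCA1high or SCA1Int in 13 genes by the interaction test in edgeR (adjusted p below 0.05), selected for that difference, of which 12 are given. Each value is the log2 fold change of LY6D+ over LY6D- cells at SCA1low minus that at the other gate, with its SE. Against SCA1high, Nfkbia differed by 2.48 ± 0.39 (adjusted p = 0.0131), with effects of 0.93 at SCA1low and -1.55 at SCA1high. Mt2, which encodes a metallothionein, differed by -1.97 ± 0.34 (adjusted p = 0.0235), with effects of -0.0042 and 1.97. Defb50 differed by -1.88 ± 0.35 (adjusted p = 0.0284), with effects of -0.70 and 1.18. Tgm2 differed by 3.61 ± 0.66, Ier3 by 2.31 ± 0.43 (adjusted p = 0.0284 each) and Dusp6 by 3.58 ± 0.69 (adjusted p = 0.039). With DESeq2 Nfkbia (2.13, adjusted p = 0.0607), Defb50 (-2.26, adjusted p = 0.0505) and Ier3 (1.97, adjusted p = 0.0881) did not pass.

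Against SCA1Int, the keratins Krt14 and Krt5 differed by 4.78 ± 0.82 and 5.32 ± 0.92, Dusp6 by 4.19 ± 0.69 and Spink1 by 2.57 ± 0.44 (adjusted p = 0.00843 each). Ackr4 differed by 7.63 ± 1.08 (adjusted p = 0.00188) and Tgm2 by 4.22 ± 0.67 (adjusted p = 0.0058). Pbsn differed by 2.05 ± 0.39 (adjusted p = 0.028). B2m, the light chain of MHC class I, differed by 2.74 ± 0.54 (adjusted p = 0.0426), with effects of 0.44 at SCA1low and -2.30 at SCA1Int. It was lost without LY6D+SCA1low replicate 1 (2.20 ± 0.66, adjusted p = 0.442) or LY6D-SCA1low replicate 1 (2.42 ± 0.63, adjusted p = 0.0902). With DESeq2 Spink1 (1.91, adjusted p = 0.262), Pbsn (1.41, adjusted p = 0.37) and B2m (2.15, adjusted p = 0.0696) did not pass.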

How the results depend on the processing

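Of the 72 called genes, 24 kept the call in all 14 alternatives and none changed sign in any of them. The total was 125 without a filter on low counts (90 higher, 35 lower), 137 with the 4 SCA1low libraries alone (74 lower) and 1663 with DESeq2 (778 higher, 885 lower). With RLE scaling 35 genes were higher and 28 lower, and with limma-trend 7 were lower. Leaving out 1 library gave totals of 83 to 101, with 39 to 76 higher and 22 to 44 lower. Fits without 1 library tested 17625 to 17743 genes, against 15270 in the main fit. The replicate block gave 100 called genes, 78 higher and 22 lower, and all 72 genes were among them. The labels give libraries of 1 replicate number a common prefix without saying what it marks. Whether replicate numbers pair the samples is not settled by these values. The correlation of replicate deviations between the 2 SCA1low groups was 0.02. Over all pairs of populations it ran from -0.088 (LY6D-SCA1high with LY6D-SCA1low) to 0.105 (LY6D+SCA1Int with LY6D+SCA1low).

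Against SCA1high, the number of genes whose LY6D effect differed, 6, became 2 with RLE, 17 without a filter, 0 with the test against a 1.5-fold change and 0 with limma-trend, 494 with DESeq2, 8 with the replicate block, and 14 to 32 on leaving out 1 library. Against SCA1Int, 9 became 1 with RLE, 20 without a filter, 0 with limma-trend, 631 with DESeq2, 13 with the block, and 17 to 27 on leaving out 1 library. The cause was not tested. With 2 libraries a group, 17 of 58 higher genes rest on a LY6D-SCA1low mean below 5 CPM, where depth limits the fold change.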
